A study of Mus musculus with 4 samples.

Results

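Transcripts of 7 genes for secreted growth factors and one of their carriers, Igf1, Pdgfa, Pdgfb, Hbegf, Osm, Gdf15 and Igfbp4, were followed through sorted mouse brain cells after stroke. The 7 genes were taken by symbol from the 32286 features counted, and each symbol matched 1 feature. All groups were Tmem119-2A-CreERT2;Ai6 mice, in which a tamoxifen-activated Cre recombinase made under the microglial gene Tmem119 switches on the green fluorescent protein ZsGreen. The 4 libraries were female stroke, male stroke, female sham and male sham, each from 1 pool of 4 mice taken at day 3, with the animals' age not given. Stroke was made by tying off the right middle cerebral artery for good (pMCAO), and sham mice had the surgery with the artery left untied. Live ZsGreen-positive cells of the operated side were sorted after perfusion, mechanical dissociation and a Percoll gradient, and 3' ends of transcripts were counted as unique molecular identifiers (UMIs).

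Myeloid cells, which here include resident microglia, border-associated macrophages of the meninges and perivascular spaces, and macrophages derived from blood monocytes, make many of the signals that neighbouring neurons, glia and vessels receive after injury. Insulin-like growth factor 1 (Igf1) acts through the receptor tyrosine kinase Igf1r and is held in the extracellular space by binding proteins such as Igfbp4. The platelet-derived growth factor chains Pdgfa and Pdgfb pair into dimers that act on Pdgfra, found on oligodendrocyte precursors, and Pdgfrb, found on pericytes. Hbegf is a membrane-bound ligand of the epidermal growth factor receptor that is freed by proteases of the ADAM family. Oncostatin M (Osm) is a cytokine of the interleukin-6 family that signals through Il6st, also called gp130, together with Osmr, and Gdf15 is a stress-induced hormone whose receptor Gfral is known from the hindbrain.

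After quality control 18037 cells remained, 4980 and 4096 in the female and male stroke pools and 4005 and 4956 in the female and male sham pools, with median depths of 9783 and 9423 UMIs in stroke and 5989 and 5646.5 UMIs in sham. Clusters, drawn without the 7 genes, were named from marker lists. Microglia-like cells numbered 3506 and 3261 in the female and male stroke pools and 3168 and 3998 in the female and male sham pools. Macrophages were nearly absent from the sham pools, with 1046 and 549 monocyte-derived macrophage-like cells in the female and male stroke pools against 12 and 42 in the female and male sham pools. The lowest barcode of the male sham pool had 4198 UMIs and the lowest of the others had 500 or 501, so the male sham pool had been cut at a higher depth. Between pools, 43 cell barcodes were shared. In microglia-like cells the 10 microglia markers summed to 155 and 164 UMIs per 10000 in stroke and 295 and 277 in sham, with none at 0 in any pool.

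Below, a level is a gene's UMIs per 10000 UMIs of the summed cells, with an exact 95% Poisson interval that covers counting error only. A share is the percentage of cells with at least 1 UMI after every cell was thinned to 3000 UMIs. Stroke was tested against sham with edgeR's quasi-likelihood test on the summed counts of the 4 pools, with sex as a covariate, and p-values were adjusted over all genes by the Benjamini-Hochberg method. Because each sex and treatment had 1 pool, the fit keeps 1 residual degree of freedom after the sex term. The spread behind a p-value is therefore mostly shared across genes, with a prior weight of 61.9 degrees of freedom in microglia-like cells and 4.42 in all sorted cells.

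In microglia-like cells Igf1 rose 18-fold after stroke, Pdgfa rose slightly, Hbegf fell to 0.314 of its sham level and Pdgfb fell slightly, while Osm, Gdf15 and Igfbp4 passed no threshold. Of 14197 genes tested, 25.3% were called higher in stroke and 25.3% lower at an adjusted p under 0.05, and 50.6% in either direction, so 4 called members of 7 is close to the background. With DESeq2, 29.3% of 15012 genes were called, and Igf1 and Pdgfa were higher and Hbegf lower. When the 4 pools were compared over all sorted cells, where 9.78% of 16688 genes were called higher and 11.3% lower, Igf1 was the 1 member called. In such sums more cells of a type and more RNA per cell cannot be told apart. Without the male sham pool, 5 members were called higher there and 2 lower, in a fit that called 31.5% of all genes higher and 28.9% lower. Each fit without 1 pool also left out the sex term, and the spread came from the group with 2 pools and from sharing across genes.

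**Figure D1:**
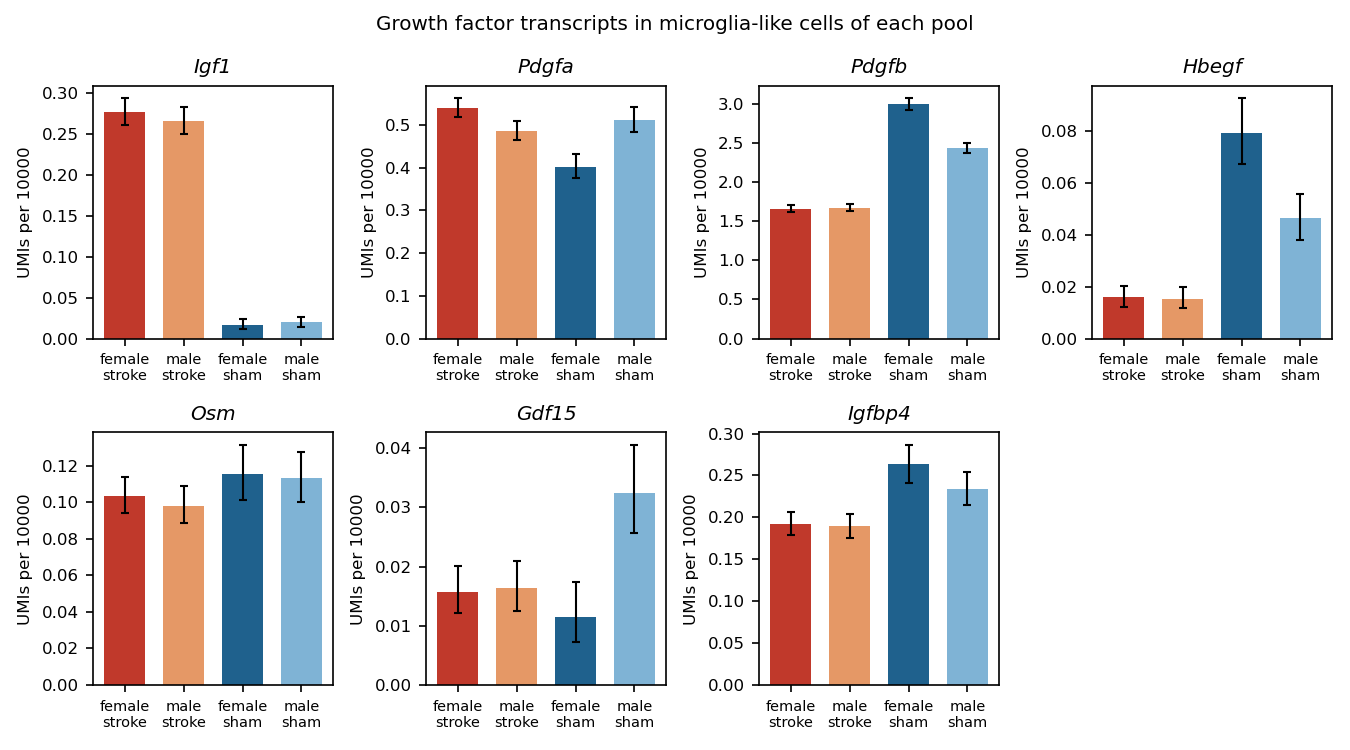
Level of each of the 7 genes in microglia-like cells of each pool, in UMIs per 10000 UMIs; bars are the level and whiskers the exact 95% Poisson interval. Igf1 stood at 0.278 and 0.266 in the stroke pools, above both sham pools, and Hbegf at 0.0159 and 0.0153, below both sham pools.

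Igf1 (chr10:87858265-87937042, plus strand, mm10) is a ligand that promotes survival and myelination. Its level in microglia-like cells was 0.278 and 0.266 UMIs per 10000 in the female and male stroke pools, against 0.0171 and 0.0198 in the female and male sham pools. Both stroke pools lay far above both sham pools. The log2 change was 4.17 ± 0.20 (SE, adjusted p = 9.9e-28, edgeR quasi-likelihood test), higher in both sexes, with within-sex values of 4.35 in females and 4.02 in males. In all sorted cells the level was 0.222 and 0.224 in the stroke pools and 0.0336 and 0.0297 in the sham pools, a log2 change of 3.23 ± 0.26 (SE, adjusted p = 0.0053, edgeR quasi-likelihood test).

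The Igf1 transcripts came from few microglia. Of 3506 female stroke microglia-like cells 315 had an Igf1 UMI before thinning, and of 3261 male ones 256, against 22 of 3168 in female sham and 30 of 3998 in male sham. The 71 female and 68 male stroke cells with 5 or more UMIs held 62.5% and 67.4% of all microglial Igf1 UMIs of their pools, and 1 cell of each sham pool reached that number. The highest cell had 43 UMIs in female stroke and 34 in male stroke, against 5 in female sham and 6 in male sham. After thinning, the share of cells with a UMI was 3.84% and 3.71% in stroke and 0.384% and 0.300% in sham, against unthinned shares of 8.98% and 7.85% in stroke and 0.694% and 0.750% in sham. As a background, the thinned share in choroid plexus-like cells was 1.05% and 0% in stroke and 0% and 0.373% in sham, and no T or NK cell-like cell had a UMI at that depth. The sham microglial share was below that background in males and above the 0% of the 105 choroid plexus-like cells in females. The choroid plexus-like cells of the female stroke pool were a less clean background, since 10 microglia markers summed to 29.2 UMIs per 10000 in them, against 6.94 in male stroke and 7.20 and 9.55 in sham. The median depth before thinning was 8795.5 and 8789 UMIs in stroke microglia-like cells and 6174 and 5419.5 in sham ones, and 17145 to 22686 UMIs in choroid plexus-like cells.

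**Figure D2:**
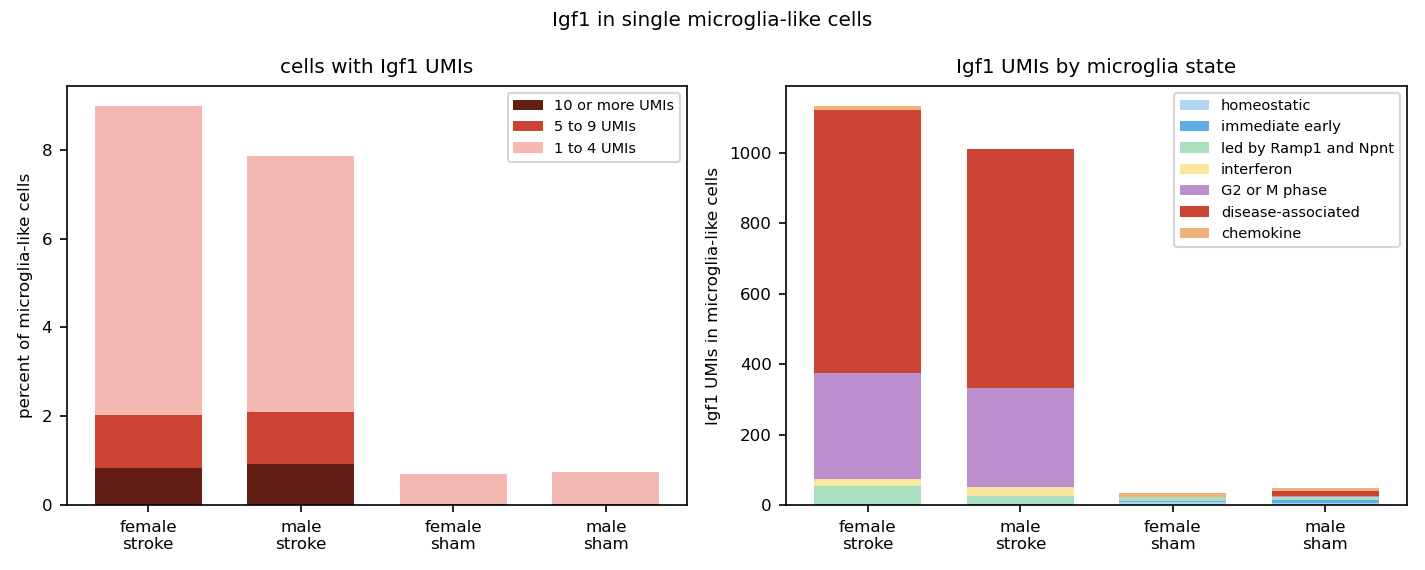
Left, percent of microglia-like cells of each pool with 1 to 4, 5 to 9 or 10 or more Igf1 UMIs before thinning; right, the number of Igf1 UMIs in each microglia state by pool. About 2% of stroke microglia-like cells, 2.03% in the female and 2.09% in the male pool, had 5 or more UMIs, and the disease-associated and G2 or M phase clusters held most of the transcripts of the stroke pools.

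By state, Igf1 was highest among microglia in the disease-associated cluster, which is led by Spp1, Ch25h and Lpl and has Igf1 itself and also the macrophage marker Fn1 among its 10 leading genes, although Igf1 took no part in the clustering. The level there was 0.619 (95% interval 0.576 to 0.665) in female stroke and 0.595 (0.551 to 0.642) in male stroke, and 0.611 (0.325 to 1.04) in the 23 such cells of male sham, with 0 UMIs in the 8 such cells of female sham. Where male sham cells fell into this cluster they thus held Igf1 at a level inside the range of the stroke pools, on 13 UMIs of which 6 came from 1 cell. The cluster held 66.0% and 67.2% of the microglial Igf1 UMIs of the female and male stroke pools, and 29.6% and 30.01% of all their microglial UMIs.

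Cells in the G2 or M phase cluster had the next level, 0.256 and 0.288 in stroke, against 0 and 0.0780 in sham, the sham values resting on 0 and 4 UMIs. The interferon cluster had 0.0422 and 0.0396 in stroke and 0 UMIs in both sham pools. In the cluster led by Ramp1 and Npnt the levels ran the other way, with 0.0566 and 0.0391 in stroke and 0.0792 and 0.113 in sham, and the intervals overlapped in both sexes. Homeostatic and immediate early microglia had 0.0119 or less in every pool, on 9 UMIs or fewer. In the chemokine cluster the values were 0.152 and 0 in stroke and 0.369 and 0.09996 in sham, on 11 UMIs or fewer in each pool.

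Within the disease-associated cluster of the stroke pools, cells with 5 or more Igf1 UMIs before thinning were set beside cells with none. Marker levels were taken after thinning, as a description with no test. The summed level of 10 disease-associated markers was 253 and 289 UMIs per 10000 in the 50 female and 44 male Igf1-rich cells, against 91.9 and 85.3 in the cells with none, and 9 of the 10 markers were higher in the Igf1-rich cells in both sexes. Spp1, the gene of osteopontin, was at 163 and 185 in Igf1-rich cells and 45.5 and 49.7 in the others. All 7 homeostatic markers were lower in Igf1-rich cells in both sexes, for example P2ry12, the ADP receptor, at 2.47 and 1.74 against 5.73 and 6.07. The 11 macrophage markers summed to 15.2 and 10.6 in Igf1-rich cells and 6.41 and 6.22 in the others, with 5 of them higher in females and 3 in males. Fn1, the gene of fibronectin, made up 13.1 and 10.3 of these sums in Igf1-rich cells and 5.60 and 5.88 in the others. Thbs1 and Arg1 were also higher in Igf1-rich cells of both pools, Thbs1 at 1.27 and 0.152 against 0.230 and 0.0599. In males these rested on 2 Thbs1 UMIs and 1 Arg1 UMI in Igf1-rich cells and 9 and 2 in the others. Ccr2 and Ms4a4c were higher in Igf1-rich cells in females and lower in males, Ms4a4c at 0.267 and 0.0758 against 0.165 and 0.186. Ly6c2, Chil3, Plac8, Vcan, Treml4 and F10 were at 0 in the Igf1-rich cells of both pools. In the others they were at 0.0944 or less. The 8 border-associated macrophage markers summed to 1.33 and 0.606 in Igf1-rich cells and 0.649 and 0.426 in the others. Of these, 4 were higher and 2 lower in females, and 3 higher and 3 lower in males. The Igf1-rich cells were deeper, with median depths of 26477 and 23616 UMIs against 12503 and 14448. The part of depth or of the macrophage markers in the contrast was not tested.

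Across all classes Igf1 was highest in border-associated macrophage-like cells, a class of 14 and 15 stroke cells and 11 and 24 sham cells. Their level was 3.72 and 2.43 in stroke and 2.80 and 1.98 in sham, and stroke and sham intervals overlapped within each sex (2.90 to 4.70 and 1.55 to 3.61 in stroke, 1.66 to 4.42 and 1.33 to 2.84 in sham). Monocyte-derived macrophage-like cells had 0.0741 and 0.0686 in stroke, with shares of 1.46% and 1.11%, against 1.05% and 0% in choroid plexus-like cells of the same pools, the first resting on 1 cell of 95. Dendritic cell-like cells had 0.00587 and 0 in stroke, on 1 and 0 UMIs, against 0.180 and 0.123 in sham, on 16 and 15 UMIs, though at a Leiden resolution of 1.6 the cells with these leading genes lay in 1 cluster of 129 and 86 stroke and 1 and 1 sham cells and another, led by Mgl2 and Cd209a, of 19 and 4 stroke and 66 and 118 sham cells. Markers of other cells also moved in microglia-like cells: the 11 macrophage markers summed to 4.92 and 4.75 UMIs per 10000 in stroke and 0.169 and 0.141 in sham with none at 0 in any pool, and the 8 border-associated macrophage markers summed to 0.544 and 0.483 in stroke and 0.0925 and 0.228 in sham with 1, 1, 2 and 0 of them at 0. Without the disease-associated cluster, an alternative chosen after seeing the data, the Igf1 log2 change was 3.29 (adjusted p = 2.8e-44, edgeR quasi-likelihood test); the part of those markers in the rest was not tested.

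Igfbp4, a secreted protein that binds insulin-like growth factors, shared the high level of Igf1 in border-associated macrophage-like cells and followed a different course in microglia. The 250 bases before the RefSeq start of each gene (GRCm38.p6) are shown because these are the members that stood highest in border-associated macrophage-like cells; capitals mark a match to the AP-1 motif TGANTCA.
Igf1, chr10:87860861-87861110, plus strand: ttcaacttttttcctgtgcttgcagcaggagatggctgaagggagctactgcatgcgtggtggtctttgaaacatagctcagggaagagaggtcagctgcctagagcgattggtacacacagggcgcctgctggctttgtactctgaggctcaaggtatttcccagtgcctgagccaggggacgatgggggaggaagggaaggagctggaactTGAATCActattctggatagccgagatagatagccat
Igfbp4, chr11:99040994-99041243, plus strand: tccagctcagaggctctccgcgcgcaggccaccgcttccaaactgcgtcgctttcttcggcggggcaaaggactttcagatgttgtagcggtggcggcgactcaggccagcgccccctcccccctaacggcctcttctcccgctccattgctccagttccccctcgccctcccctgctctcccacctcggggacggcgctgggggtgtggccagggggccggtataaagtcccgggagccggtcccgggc
Searched on both strands for the AP-1 motif TGANTCA, the PU.1 motif GAGGAAGT and the STAT motif TTCNNNGAA, the Igf1 window held 1 AP-1 match and the Igfbp4 window held none of the 3. Of 32851 promoter windows of this length, 6.75% held the AP-1 letters, 2.44% the PU.1 letters and 7.02% the STAT letters. N stood for any base in these searches, and the Igf1 match to the AP-1 letters has A at that place. A match is a description of letters and not of a bound site.

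Igfbp4 (chr11:99041244-99054392, plus strand, mm10) had a level of 2.55 and 4.25 in border-associated macrophage-like cells of the female and male stroke pools and 4.35 and 3.48 in those of the sham pools. The 4 intervals overlapped, and shares were 64.3% and 63.6% in stroke and 44.4% and 50% in sham. In microglia-like cells the level was 0.192 and 0.189 in stroke and 0.263 and 0.234 in sham, lower in both stroke pools before scaling. After trimmed-mean (TMM) scaling, which sets the bulk of genes equal between pools, the log2 change was -0.08 ± 0.15 (SE, adjusted p = 0.68, edgeR quasi-likelihood test) and was not called. The choice of scaling decides this call: with library totals alone the change was -0.38 (adjusted p = 0.025, edgeR quasi-likelihood test), and with totals the median of all tested genes moved to -0.34, against -0.04 with TMM.

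Among microglia states of the stroke pools Igfbp4 was lowest in the chemokine and disease-associated clusters. It had 0.128 and 0.117 in disease-associated stroke cells, against 0.405 and 0.2501 in homeostatic stroke cells, the opposite order to Igf1. Sham homeostatic cells had 0.230 and 0.210, lower than in stroke with separate intervals in females and overlapping ones in males. Monocyte-derived macrophage-like cells had 0.175 and 0.202 in stroke, carried by few cells: 14 of 1046 female and 10 of 549 male cells had 5 or more UMIs and held 50.9% and 42.0% of the class's Igfbp4 UMIs. In the 42 macrophage-like cells of male sham the level was 0.683 (95% interval 0.464 to 0.970), on 31 UMIs, all of them in 17 cells of the larger macrophage-like cluster. Choroid plexus-like cells, the background class for this gene, had shares of 2.11% and 0% in stroke and 0% and 1.49% in sham, against 6.35% and 5.95% in stroke and 7.33% and 5.90% in sham in microglia-like cells. Before thinning the microglial shares were 17.2% and 16.9% in stroke and 12.9% and 11.96% in sham, higher in the stroke pools, whose cells were deeper.

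Of 16 other genes of the insulin-like growth factor axis, 8 could be tested in microglia-like cells, 2 rose and 5 fell, with a median log2 change of -0.74. Igfbp6, a binding protein with a preference for Igf2, rose by 3.78 ± 0.22 and Igf2r, the clearance receptor of Igf2, by 3.02 ± 0.31 (SE, adjusted p = 1.6e-23 and 7.7e-13, edgeR quasi-likelihood test). Igf2 fell by 2.03 ± 0.59 and Igfbp2 by 1.33 ± 0.33 (SE, adjusted p = 0.0033 and 0.00057, edgeR quasi-likelihood test). Both are abundant in choroid plexus, whose 9 markers summed to 1.98 and 1.11 UMIs per 10000 in stroke microglia-like cells and 5.80 and 16.8 in sham ones with 2, 2, 1 and 2 of them at 0, and the part of that signal was not tested. Igf1r, the receptor of Igf1, fell by 0.91 ± 0.14 and the insulin receptor Insr fell by 0.93 ± 0.15 (SE, adjusted p = 2.9e-07 and 2.7e-07, edgeR quasi-likelihood test). In monocyte-derived macrophage-like cells Igf2r stood at 0.560 and 0.504 in stroke, above the 0.0492 and 0.0495 of stroke microglia-like cells.

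**Figure D3:**
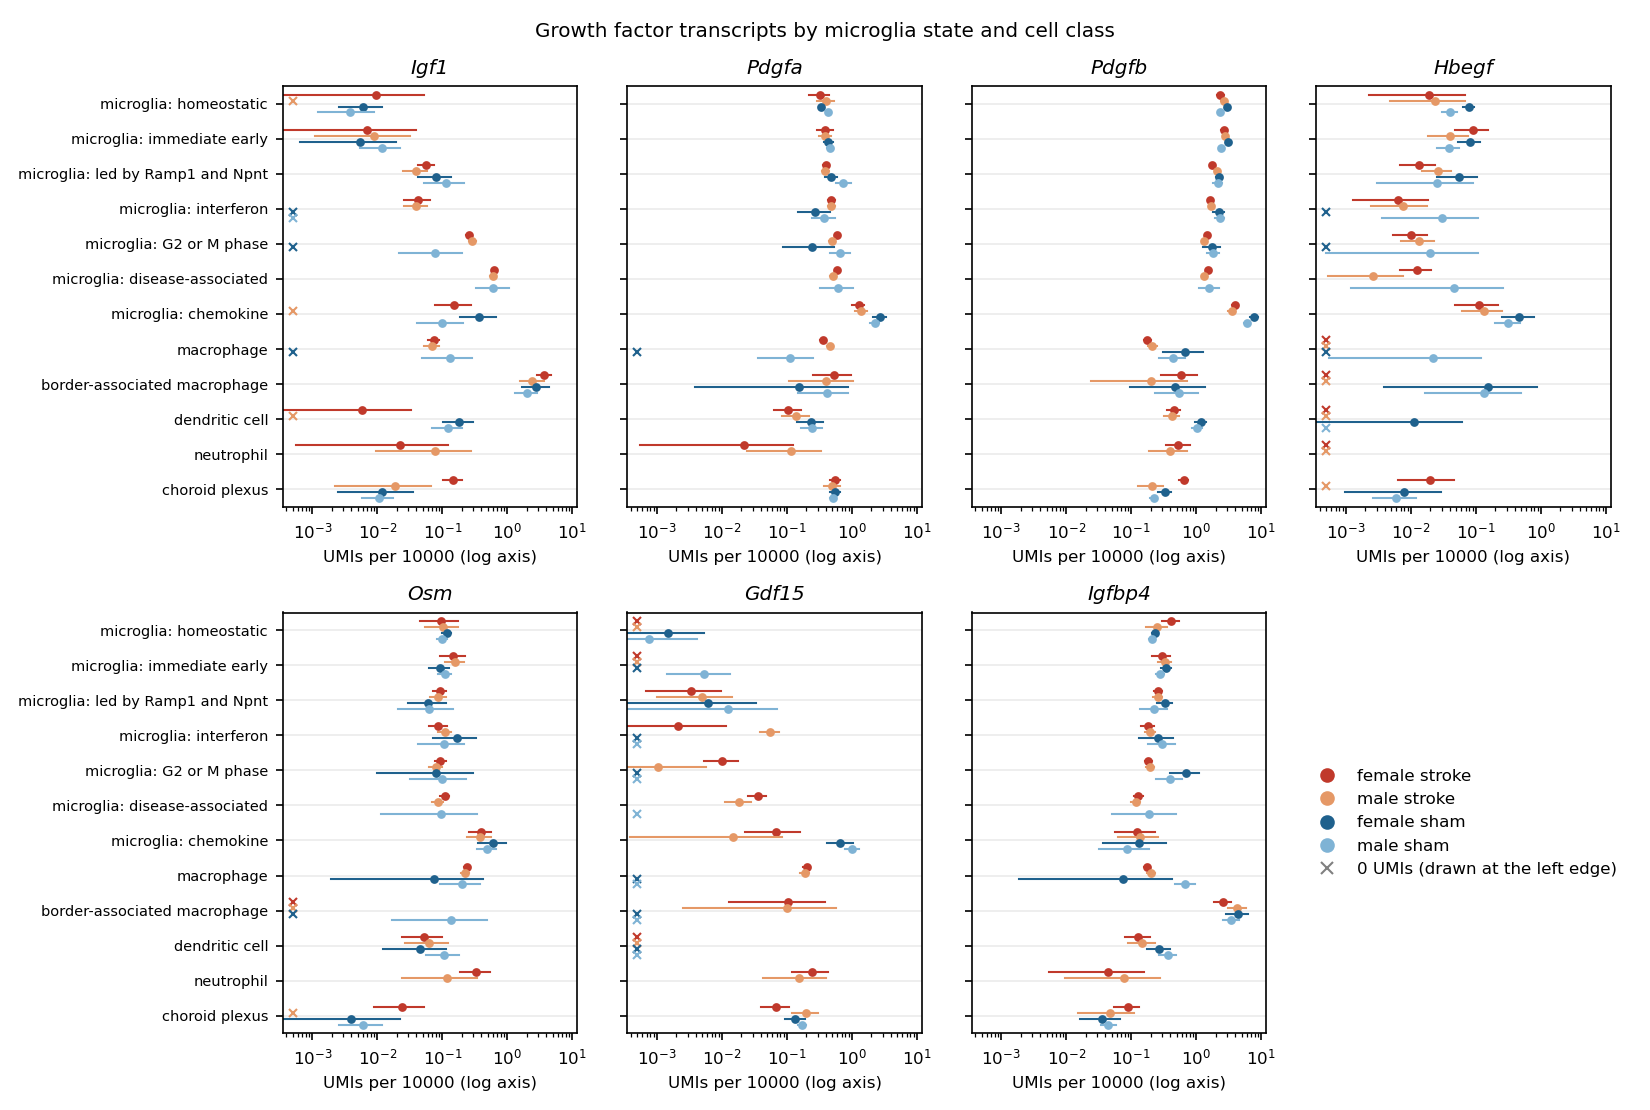
Level of each gene, in UMIs per 10000 UMIs on a log axis, in 7 microglia states and 5 other classes, with exact 95% Poisson intervals; groups of fewer than 10 cells of a pool are not drawn and crosses at the left edge are 0 UMIs. Igf1 and Igfbp4 peaked in border-associated macrophage-like cells, and Pdgfa, Pdgfb, Hbegf and Osm in chemokine microglia. Gdf15 was higher in chemokine microglia of the sham pools than in macrophage-like cells of the stroke pools. The sham values rest on 20 and 71 UMIs, of which 53 of the 71 were in 1 cell.

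Pdgfb (chr15:79995874-80014977, minus strand, mm10), the B chain whose homodimer recruits pericytes, was broadly present in microglia. Its level in microglia-like cells was 1.66 and 1.67 in stroke and 3.00 and 2.43 in sham. Both stroke pools lay below both sham pools, and the share was 38.1% and 40.3% in stroke and 56.0% and 48.3% in sham, against a share of 11.6% and 4.76% in stroke and 10.5% and 5.04% in sham choroid plexus-like cells. Before thinning the shares were 69.1% and 71.0% in stroke and 75.4% and 69.2% in sham. The log2 change was -0.40 ± 0.15 (SE, adjusted p = 0.020, edgeR quasi-likelihood test), lower in both sexes at -0.52 in females and -0.27 in males. The call was kept in 10 of 16 alternatives. Without the female or the male stroke pool it was lost at changes of -0.38 and -0.40 (adjusted p = 0.27 and 0.23), and without the female or the male sham pool it was kept at -0.28 and -0.46 (adjusted p = 0.0012 and 3.1e-05, edgeR quasi-likelihood test).

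Where the cells were split by state, the 2 Pdgfb values of stroke and sham homeostatic cells interleaved, at 2.35 and 2.70 in stroke and 3.00 and 2.32 in sham. Immediate early cells likewise had 2.65 and 2.76 in stroke and 3.09 and 2.38 in sham. Disease-associated cells of the stroke pools had 1.496 and 1.31, and those in G2 or M phase 1.48 and 1.32, lower than their homeostatic cells. The highest level was in chemokine microglia, led by Ccl3 and Ccl4, at 3.99 and 3.495 in stroke and 7.75 and 6.098 in sham, with stroke intervals of 3.54 to 4.47 and 3.06 to 3.97 below sham intervals of 6.78 to 8.81 and 5.53 to 6.70. Monocyte-derived macrophage-like cells had 0.176 and 0.211 in stroke, and microglia-like cells held 92.3% and 95.8% of all Pdgfb UMIs of the stroke pools and 94.9% and 89.9% of those of the sham pools.

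Pdgfa (chr5:138976014-138997370, minus strand, mm10) encodes the A chain, whose dimers act on Pdgfra of oligodendrocyte precursors. Its level in microglia-like cells was 0.540 and 0.486 in stroke and 0.402 and 0.512 in sham. The groups overlapped before scaling, since the male stroke level was below the male sham level. After TMM scaling the levels were 0.598 and 0.541 in stroke and 0.354 and 0.473 in sham, and the log2 change was 0.47 ± 0.14 (SE, adjusted p = 0.0043, edgeR quasi-likelihood test), at 0.75 in females and 0.20 in males. With library totals in place of TMM the change was 0.17 (adjusted p = 0.28, edgeR quasi-likelihood test), and without the female stroke pool it was 0.40 (adjusted p = 0.23, edgeR quasi-likelihood test). Without the female sham pool it was 0.26 and without the male sham pool 0.74, both called.

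Like Pdgfb, Pdgfa was highest in chemokine microglia, at 1.27 and 1.40 in stroke and 2.72 and 2.26 in sham, again with stroke intervals (1.03 to 1.56 and 1.13 to 1.72) below those of sham (2.16 to 3.38 and 1.92 to 2.64). The other microglia states with over 100 cells ranged from 0.320 to 0.600 in stroke and from 0.339 to 0.744 in sham. Outside microglia it had 0.356 and 0.460 in stroke macrophage-like cells and 0.496 to 0.558 in choroid plexus-like cells of the 4 pools. Neutrophil-like cells of the stroke pools had 0.0221 and 0.117, and dendritic cell-like cells 0.106 and 0.141 in stroke and 0.236 and 0.247 in sham. The microglial share of 12.2% and 12.8% in stroke and 10.9% and 12.7% in sham did not exceed the 15.8% and 28.6% in stroke and 16.2% and 12.9% in sham of choroid plexus-like cells, and 1 of 21 and 0 of 13 T or NK cell-like cells in stroke and 0 of 9 and 1 of 12 in sham had a UMI at that depth. Before thinning the microglial shares were 33.4% and 32.5% in stroke and 18.9% and 21.9% in sham.

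Of 10 other genes of the platelet-derived growth factor family, 5 could be tested in microglia-like cells, 3 rose and 0 fell, with a median log2 change of 0.48. Furin, a protease that activates growth factor precursors, rose by 0.53 ± 0.14 and the co-receptor Nrp1 by 0.48 ± 0.14 (SE, adjusted p = 0.0012 and 0.0037, edgeR quasi-likelihood test). Pdgfrl, a receptor-like gene, rose by 0.85 ± 0.32 (SE, adjusted p = 0.024, edgeR quasi-likelihood test). With library totals in place of TMM, or without the female stroke pool, 0 genes of this family were called higher. The receptors themselves had too few UMIs for a test, with 0 and 1 Pdgfra UMIs in stroke and 3 and 10 in sham microglia-like cells, and 5 and 5 Pdgfrb UMIs in stroke and 8 and 3 in sham.

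Hbegf (chr18:36504927-36515805, minus strand, mm10) was rare in every class. Its microglial level was 0.0159 and 0.0153 in stroke, on 65 and 58 UMIs, and 0.0794 and 0.0464 in sham, on 158 and 110 UMIs. The groups did not overlap, and no cell of the stroke pools held more than 2 UMIs. The log2 change was -1.67 ± 0.26 (SE, adjusted p = 2.3e-07, edgeR quasi-likelihood test), lower in both sexes at -1.99 in females and -1.33 in males. In all sorted cells the change was -1.57 ± 0.46 and was not called (SE, adjusted p = 0.066, edgeR quasi-likelihood test). That fit called 21.1% of all genes tested. With every pool kept, it was called with library totals, without the sex term and with the male sham UMI minimum required of every cell. Those looser fits called 33.1%, 28.7% and 25.3% of genes. It was also called without the filter on low counts (19.1% of genes called), and not with DESeq2 (23.9%). Leaving out each pool gave changes of -1.88 to -1.21.

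The Hbegf share was 0.682% and 0.668% in stroke and 2.44% and 1.33% in sham microglia-like cells (1.65% and 1.503% in stroke and 4.17% and 2.33% in sham before thinning), and 1.05% and 0% in stroke and 0% and 0.187% in sham choroid plexus-like cells. The stroke microglial share was below that of choroid plexus-like cells in females, where that share rests on 1 cell of 95, and above it in males. Chemokine microglia had the highest level, 0.111 and 0.136 in stroke and 0.469 and 0.314 in sham, on 8 and 9 UMIs in stroke and 14 and 22 in sham, of which 8 of the 22 were in 1 cell. In immediate early cells the groups interleaved, at 0.0906 and 0.0402 in stroke and 0.0807 and 0.0382 in sham. Homeostatic cells had 0.0188 and 0.0234 in stroke, on 2 and 3 UMIs, and 0.0780 and 0.04003 in sham. None of the 1046 female and 549 male stroke macrophage-like cells had a UMI, and 3 UMIs would have been levels of 0.00198 and 0.00374, below the level of stroke microglia-like cells.

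Of 17 other genes of the epidermal growth factor family, its sheddases and receptors, 7 could be tested, 3 rose and 0 fell, with a median log2 change of 0.55. Adam9, a protease that can shed Hbegf, rose by 1.87 ± 0.15 and Rhbdf2, which carries Adam17 to the cell surface, by 1.57 ± 0.16 (SE, adjusted p = 2.9e-17 and 1.8e-12, edgeR quasi-likelihood test). Cd9, a tetraspanin that binds the Hbegf precursor, rose by 0.62 ± 0.16 (SE, adjusted p = 0.00093, edgeR quasi-likelihood test). Egfr had 2 and 0 UMIs in stroke and 0 and 3 in sham microglia-like cells and Erbb4 0 and 1 in stroke and 6 and 9 in sham, too few for a test.

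**Figure D4:**
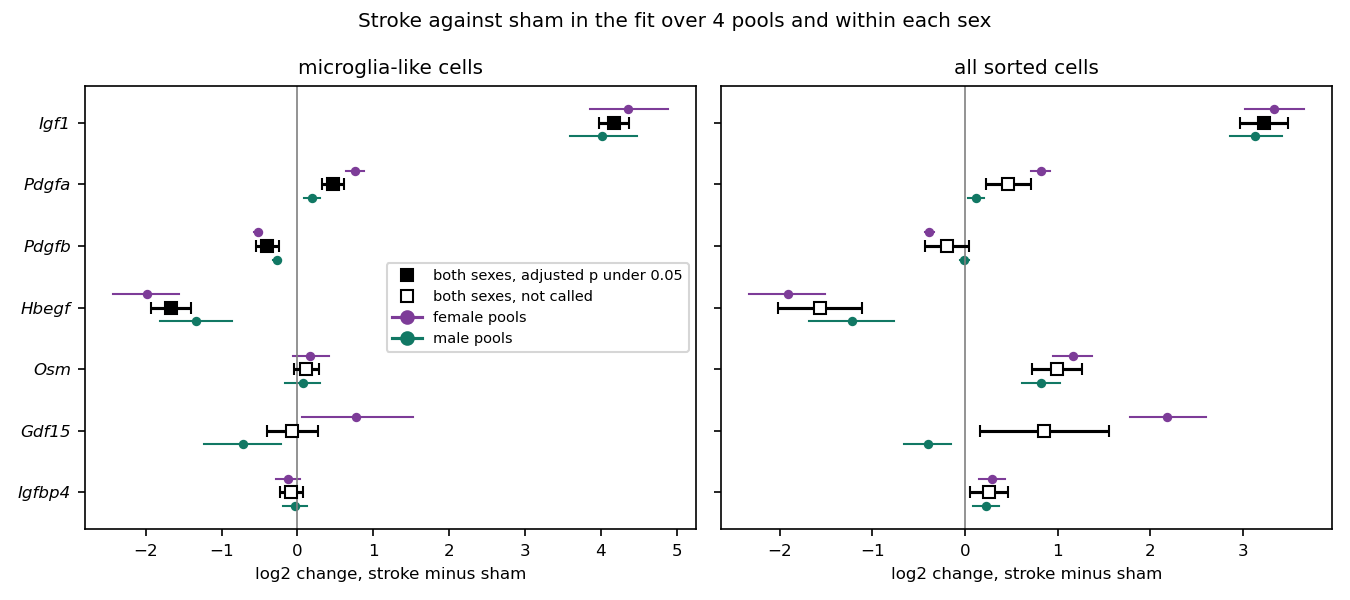
Log2 change of each gene, stroke minus sham, in microglia-like cells (left) and in all sorted cells (right); squares are the edgeR fit over the 4 pools with its SE, filled where the adjusted p was under 0.05, and circles are the TMM-scaled change within each sex with its exact 95% interval for counting error. Igf1 lies at 4.17 on the left and 3.23 on the right, and the female and male circles of Gdf15 lie on opposite sides of 0 in both panels.

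Osm (chr11:4236420-4241026, plus strand, mm10) did not pass the threshold in microglia. The microglial level was 0.104 and 0.0982 in stroke and 0.116 and 0.113 in sham, with overlapping intervals. The TMM-scaled log2 change was 0.12 ± 0.17 (SE, adjusted p = 0.58, edgeR quasi-likelihood test), and its sign turned to -0.18 with library totals. In all sorted cells the level was 0.134 and 0.116 in stroke and 0.0915 and 0.0766 in sham, both stroke pools above both sham pools. That change of 0.99 ± 0.27 narrowly missed the threshold (SE, adjusted p = 0.056, edgeR quasi-likelihood test), in a fit that called 21.1% of all genes tested. With every pool kept, it was called without the sex term (28.7% of genes called) and with the male sham UMI minimum required of every cell (25.3%). It was also called without the filter on low counts (19.1%), and not with DESeq2 (23.9%) or library totals (33.1%). Leaving out each pool gave changes of 0.90 to 1.14. Monocyte-derived macrophage-like cells, at 0.239 and 0.226 in stroke, held 44.1% and 31.9% of all Osm UMIs of the stroke pools and 0.417% and 2.91% of those of the sham pools.

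Chemokine microglia again had the highest microglial level, 0.387 and 0.377 in stroke and 0.604 and 0.486 in sham, although 13 of the 25 male stroke UMIs were in 1 cell. The other microglia states of the stroke pools had 0.0803 to 0.157. Neutrophil-like cells had 0.332 and 0.117 in stroke, on 15 and 3 UMIs. The microglial share was 2.42% and 3.11% in stroke and 3.67% and 3.63% in sham, and macrophage-like cells of the stroke pools had 5.84% and 5.0%. Choroid plexus-like cells had 0% and 0% in stroke and 0% and 0.560% in sham. Before thinning the microglial shares were 9.27% and 8.71% in stroke and 6.53% and 6.20% in sham, the opposite order.

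Of 15 other genes of oncostatin M and gp130 signalling, 12 could be tested in microglia-like cells, 2 rose and 5 fell, with a median log2 change of -0.13. Il6 itself fell by 2.17 ± 0.17 and its receptor Il6ra by 1.23 ± 0.15 (SE, adjusted p = 1.2e-17 and 1.4e-10, edgeR quasi-likelihood test). Lifr, which pairs with Il6st as a receptor for leukaemia inhibitory factor and, in humans, for oncostatin M, fell by 0.95 ± 0.14, and Il6st by 0.43 ± 0.14 (SE, adjusted p = 8.6e-08 and 0.0097, edgeR quasi-likelihood test). The feedback inhibitor Socs3 rose by 1.51 ± 0.14 and the transcription factor Stat3 by 0.52 ± 0.14 (SE, adjusted p = 5.3e-14 and 0.0014, edgeR quasi-likelihood test). Osmr had 0 UMIs in microglia-like cells of all 4 pools, which allows up to 3 counts in each, and 1 and 0 UMIs in all sorted cells of stroke and 6 and 1 in sham.

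Gdf15 (chr8:70629393-70632456, minus strand, mm10) was carried by different cells in stroke and sham pools. Over all sorted cells its level was 0.0654 and 0.0489 in stroke and 0.0221 and 0.0756 in sham, and the log2 change of 0.85 ± 0.70 was not called (SE, adjusted p = 0.42, edgeR quasi-likelihood test). In the stroke pools macrophage-like cells held 76.5% and 63.3% of its UMIs, with a level of 0.202 and 0.190 and shares of 4.96% and 3.89%. In the sham pools choroid plexus-like cells held 58.6% and 74.8% of its UMIs, with a level of 0.135 and 0.172, against 0.0680 and 0.197 in choroid plexus-like cells of the stroke pools. The male sham pool had 536 choroid plexus-like cells, against 111 in the female sham pool and 100 and 46 in the female and male stroke pools.

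In microglia-like cells the Gdf15 level was 0.0157 and 0.0163 in stroke and 0.0116 and 0.0325 in sham, so the stroke values lay between those of sham. The log2 change was -0.07 ± 0.33 (SE, adjusted p = 0.89, edgeR quasi-likelihood test), and it depended on the sham pools, at 0.85 without male sham and -0.76 without female sham, each set against 1 remaining sham pool and fitted with no sex term (adjusted p = 0.041 and 0.026, edgeR quasi-likelihood test). Over all sorted cells it was 1.99 without male sham (adjusted p = 0.0021) and -0.14 without female sham (adjusted p = 0.61, edgeR quasi-likelihood test). Single cells weigh on these values, with 1 male sham cell of the chemokine cluster holding 53 of the pool's 77 microglial UMIs and 1 cell of each stroke pool holding 23 of 64 and 23 of 62. By state, the chemokine cluster had 0.0692 and 0.0151 in stroke, on 5 and 1 UMIs, and 0.671 and 1.01 in sham, on 20 and 71 UMIs. Without the highest cell of each pool the microglial levels were 0.0100 and 0.0103 in stroke and 0.00855 and 0.0101 in sham. The share was 0.248% and 0.267% in stroke and 0.140% and 0.150% in sham microglia-like cells (0.656% and 0.767% in stroke and 0.284% and 0.300% in sham before thinning), below the 4.21% and 2.38% in stroke and 3.81% and 4.10% in sham of choroid plexus-like cells, while 0 of 21 and 0 of 13 T or NK cell-like cells in stroke and 0 of 9 and 0 of 12 in sham had a UMI.

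Of 11 other genes of the Gdf15 list, its receptor with the stress and p53 regulators, 9 could be tested in microglia-like cells, 2 rose and 1 fell, with a median log2 change of 0.17. Cdkn1a, the cell cycle inhibitor p21, rose by 2.03 ± 0.14 and the stress transcription factor Atf3 by 0.72 ± 0.15 (SE, adjusted p = 3.2e-19 and 7.7e-05, edgeR quasi-likelihood test). Trp53, the gene of p53, fell by 0.32 ± 0.14 (SE, adjusted p = 0.048, edgeR quasi-likelihood test). With DESeq2, with its size factors in edgeR, without the filter on low counts, with stricter quality control, with the members kept in the clustering, or without either stroke pool, 0 genes of this list were called lower. Gfral had 0 UMIs in all sorted cells of every pool, and its partner Ret had 0 and 1 in stroke and 0 and 1 in sham microglia-like cells.

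Among 20 other growth factor genes, 13 could be tested in microglia-like cells, 6 rose and 1 fell, with a median log2 change of 0.58. Csf1, the survival factor of microglia and macrophages, rose by 2.12 ± 0.15 and Grn, the gene of the lysosomal growth factor progranulin, by 1.21 ± 0.16 (SE, adjusted p = 6.2e-19 and 4.1e-09, edgeR quasi-likelihood test). Mdk, midkine, rose by 2.02 ± 0.27 and Ptn, pleiotrophin, a related heparin-binding factor, fell by 2.29 ± 0.47 (SE, adjusted p = 3.2e-09 and 3.5e-05, edgeR quasi-likelihood test). Ptn rested on 4 and 19 UMIs in stroke and 19 and 58 in sham. In the same cells the choroid plexus markers given above summed to 1.98 and 1.11 UMIs per 10000 in stroke and 5.80 and 16.8 in sham. Their part in the change was not tested. Over the 6 lists together, 18 of 54 tested genes rose and 12 fell. The fit, the same as for each list above, called 25.3% of all genes higher and 25.3% lower. With library totals in place of TMM the order turned, with 13 called higher and 18 lower. That fit called 16.3% of all genes higher and 45.0% lower.

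Most microglia showed few of the members at once. At 3000 UMIs, 48.1% of female and 45.7% of male stroke microglia-like cells had a UMI of none of the 7 genes, against 34.6% and 40.8% in sham. Another 40.4% and 42.9% of stroke cells had exactly 1 of them, against 51.4% and 47.2% of sham cells.

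The likeness of each member to 3263 other genes was described by Pearson's r of log2(level + 0.1) over 39 groups of at least 50 cells, which share libraries and depth, so no p is given. Pdgfb was most like Il1a (r = 0.94), Klk8 (0.93) and Mlxipl (0.92). Osm was most like C5ar1 (0.84), Atf3 (0.82) and Nrbf2 (0.81), and Igfbp4 most like Lpar6 (0.80), Tifab (0.80) and Rp2 (0.79). For Igf1 the nearest genes were Ch25h (0.73), Mki67 (0.63) and Lpl (0.62), a likeness that rests on groups in which border-associated macrophage-like cells, too few per pool, were not included. For Pdgfa, Hbegf and Gdf15 no gene reached 0.70, and the gene nearest to Hbegf was Pdgfa (0.67).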

How the data were processed

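Single-cell RNA libraries of 4 pools were analysed, each pooled from 4 mice. Per the submitters' processing notes reads were processed with Cell Ranger 7.1.0 against mm10, while the file headers name cellranger 6.1.2; nothing read for this work says if intronic reads were included. The deposited values are whole UMI counts per gene and barcode, 20437 barcodes in all. Coordinates are from GENCODE M21 (GRCm38).

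Barcodes with at least 500 genes, 1000 UMIs and at most 10% mitochondrial UMIs were kept (18045). Scrublet marked 8 of them, 0.0443%, too few to have worked, so doublets remain. Barcodes over the mitochondrial limit were 14.0% and 15.1% in the stroke pools and 9.21% and 0.84% in the sham pools. Cells were clustered with scanpy 1.11.5 (2000 variable genes without the 7 members, 30 components, 15 neighbours, Leiden resolution 0.8) and named from marker lists. A name needed 3 markers in 25% of cells and no class with more of its own markers among the 10 leading genes; microglia state markers counted as microglial, and clusters under 25 cells stayed unnamed. Differences from the study's own cell types may come from these rebuilt names.

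Thinning to 3000 UMIs left out 278 and 269 stroke and 304 and 0 sham microglia-like cells. Counts were summed per pool and tested with edgeR 4.0.16 (filterByExpr, TMM, quasi-likelihood test, sex as covariate, 1 residual degree of freedom). DESeq2 1.42.0 was an alternative. The test was checked on simulated counts of 14197 genes, few of them changed, with as many set higher as lower. It called 76.4% of genes set 1 log2 unit higher and 69.6% of those set 1 lower, and 4.49% of its calls were false. In the data 50.6% of genes were called, so the check cannot give the share of false calls here. With 1 pool per sex and treatment, p-values rest on how the stroke change differed between the sexes and on spread shared across genes. They do not measure the spread between mice or between pools of the same sex and treatment. The TMM factors in microglia-like cells were 0.904 and 0.899 in stroke and 1.14 and 1.08 in sham. Named were all 7 members, the ligands' receptors, and per companion list up to 3 genes called in each direction by size of change; Igf1r and Il6st are receptors. The members and lists were chosen with earlier results of these data known.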

Additional observations from a re-analysis of the deposited data

Results flagged for a closer look

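Gdf15 had opposite signs in the sexes, a difference that was not tested because each sex and treatment had 1 pool. In microglia-like cells its TMM-scaled log2 change was 0.77 in females (95% interval for counting error 0.06 to 1.52), on 64 UMIs in stroke and 23 in sham, and -0.72 in males (-1.23 to -0.22), on 62 UMIs in stroke and 77 in sham, of which 53 were in 1 cell, while 1 cell of each stroke pool held 23. Without the highest cell of each pool the levels were 0.0100 and 0.0103 UMIs per 10000 in female and male stroke and 0.00855 and 0.0101 in female and male sham, so the lower male stroke level rests on single cells. In all sorted cells it was 2.18 in females, on 400 UMIs in stroke and 58 in sham, and -0.40 in males, on 240 UMIs in stroke and 305 in sham; choroid plexus-like cells held 21 of the male stroke UMIs and 228 of the male sham UMIs.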

How the results depend on the processing

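In microglia-like cells Igf1 and Hbegf were called in all 16 alternatives, with log2 changes of 3.29 to 4.38 and -1.97 to -1.22. Pdgfa was lost with library totals in place of TMM (0.17) and with cells thinned to 3000 UMIs (0.32). Pdgfb was lost with DESeq2 (-0.35), stricter quality control (-0.33), without cell cycle clusters (-0.32) and thinned (-0.29). So 1 member was called higher with library totals or thinned, and 1 lower with DESeq2, stricter quality control, without cell cycle clusters or thinned. Members that were not called changed sign: Osm to -0.18 with library totals and -0.12 thinned; Gdf15 to 0.040 with DESeq2, 0.56 with stricter quality control, 0.21 without cell cycle clusters, 0.68 thinned and 0.083 with the members kept in the clustering; Igfbp4 to 0.11 thinned and 0.075 without the disease-associated cluster, which was chosen after seeing the data. Igfbp4 was called with library totals (-0.38). DESeq2 called 7 companion genes lower, in a fit that called 10.7% of 15012 genes lower. The main fit called 12 companion genes lower and 25.3% of all genes.

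Leaving out each pool in turn, which also drops the sex term and takes the lone pool to vary like the others, gave 1 to 3 members called higher and 1 to 3 lower, with ranges of 0.26 to 0.74 for Pdgfa, -0.46 to -0.28 for Pdgfb and -0.76 to 0.85 for Gdf15, and 11 to 21 companion genes called higher and 8 to 15 lower.

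In all sorted cells Igf1 was called in all 9 alternatives. Without the filter on low counts, without the sex term, and with 4198 UMIs required of every cell, 2 members were called higher and 1 lower: Osm at 1.03, 0.997 and 0.94, and Hbegf at -1.53, -1.60 and -1.74. Those fits called 8.38%, 14.2% and 12.1% of all genes higher and 10.7%, 14.5% and 13.2% lower. With library totals 1 was called lower, Hbegf (-1.99), where 25.4% of all genes were, and Igfbp4 was -0.16. Leaving out each pool gave 1 to 5 called higher and 0 to 2 lower, with ranges of 0.17 to 0.82 for Pdgfa, -0.29 to -0.057 for Pdgfb, -1.88 to -1.21 for Hbegf, 0.90 to 1.14 for Osm, -0.14 to 1.99 for Gdf15 and 0.25 to 0.31 for Igfbp4. The cause of these shifts was not tested.

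Of the untested levels in microglia-like cells, 1 member, Igf1, was higher in the stroke pool of both sexes. Pdgfb, Hbegf, Osm and Igfbp4 were lower in both. After thinning 2 members were higher in both, as were 2 without the cell with most UMIs of the gene, the last chosen after seeing the data. Of the shares, 3 were higher and 3 lower in both sexes, and 5 higher and 1 lower with no thinning. Low counts limit Igf1 in sham, Hbegf and Gdf15. The sex term already sets stroke against sham within each sex, and leaving it out ended or added no call of a member in microglia-like cells.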
